A study of Mus musculus with 2 samples.

Results

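The collagen genes were the 44 of 19073 measured features whose mouse symbol reads Col, a number, the letter a and a number. They were followed through 2 libraries of single liver cells, by collagen class, by cell class and between the groups. Both libraries came from livers of male p16-Tom mice on a C57BL/6 background that had received carbon tetrachloride (CCl4) for 4 weeks together with tamoxifen. CCl4 is a solvent that injures hepatocytes near the central vein and leaves a collagen scar after repeated doses. The mice were heterozygous, and carried p16-CreERT2 and R26-CAG-LSL-tdTomato-WPRE. Tamoxifen therefore switches on the red protein tdTomato, for good, in any cell type in which the p16 gene is active at that time. The Tom- group held p16low cells without the red protein, and the Tom+ group held p16high cells with it. The pieces of liver were fixed first and dissociated afterwards, and cells were sorted as positive for Hoechst, a nuclear dye, and MitoBrilliant 646, a mitochondrial dye. Age, the number of mice behind a library and the animal of each cell were not given. No group without CCl4 was measured by this assay, so none of the values below shows a change due to the injury.

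Collagens are the triple-helical proteins of the extracellular matrix, and each chain of the helix has its own gene. Fibril-forming collagens such as types I and III make the scar of a fibrotic liver, type IV forms the network of basement membranes, and the remaining classes decorate fibrils, form fine filaments or span the cell membrane. In an injured liver the stellate cell, a pericyte of the sinusoid, is known as the main maker of types I and III, while type XVIII, whose cleaved end is endostatin, is a collagen that hepatocytes are known to make.

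The files held 23220 Tom- and 16339 Tom+ barcodes, of which 20159 and 13378 passed the filters on genes, UMIs (unique molecular identifiers, each 1 counted molecule) and mitochondrial RNA. Barcodes found in both libraries numbered 503, which is 2.17% of the Tom- and 3.08% of the Tom+ barcodes. Clusters that were neither poor in genes nor high in Ptprc, Dcn or Pecam1 were called hepatocytes, 10913 Tom- and 9933 Tom+ cells with medians of 32495 and 35287 UMIs. The class also held a pair of clusters led by genes of other cells. A cluster of 151 Tom- and 48 Tom+ cells was led by macrophage genes such as Marco, Clec4f and C1qa, and a cluster of 50 and 16 cells by Dmbt1, Mmp7, Spink4 and the bile duct keratin Krt19. Without both, the summed collagen level was 1453 and 1295 CPM, as with them. A larger cluster of 1536 cells (1281 Tom- and 255 Tom+) had Cd5l and Clec4f among its 10 leading genes beside the hepatocyte genes Scd1 and Mup10. Among all hepatocytes 4935 and 2574 cells were zone 1-like (around the portal vein) and 1127 and 3654 were zone 3-like (around the central vein). The zone classes were not alike in both groups, since 1 cluster of zone 3-like cells held 30 Tom- and 1493 Tom+ cells and 1 cluster of zone 1-like cells 38 and 507. The excluded cells gave 3 small clusters of low depth, each with most of its markers from 1 other cell type but not all. By markers raised over the other excluded cells, the first carried 16 of stellate and other mesenchymal cells, 2 of macrophages and 1 of leukocytes. The list does not tell stellate from other mesenchymal cells, so stellate markers, cells and RNA below may be of either. The second carried 15 of endothelial cells, 3 of stellate cells and 1 of macrophages. The last carried 11 of macrophages, 3 of endothelial cells, 2 of stellate cells and 2 of leukocytes, beside single markers of bile duct and zone. Macrophage reference genes summed to 1384 and 1548 CPM in the first and 1071 and 777 CPM in the second, against 256 and 204 CPM in hepatocytes. The stellate-marker cluster held 133 and 54 cells with medians of 4998 and 4038 UMIs, the endothelial-like cluster 415 and 152 cells, and the macrophage-marker cluster 363 and 133 cells. The stellate-marker cluster is not called stellate-like because none of its markers was among its 10 leading genes (Fbn2, Dpep1, Mgp and others). Its Dcn level was 1070 and 1662 CPM and its Lrat level 146 and 212 CPM in the Tom- and Tom+ libraries, while Acta2, the actin of activated stellate cells, had 4 and 1 UMIs. Albumin (Alb) stood at 92096 and 84664 CPM in that cluster and at 118306 and 108042 CPM in hepatocytes, so every class held hepatocyte RNA. The reporter fitted the labels, with tdTomato at 72.6 CPM in Tom- and 812 CPM in Tom+ hepatocytes. All levels are CPM, the UMIs of a gene summed over the cells of a class and scaled to a total of 1000000 UMIs, given first for the Tom- and then for the Tom+ library. The assay reads each gene through short probe pairs, so a level can be compared between cells but not between genes. Sums, shares and rankings over genes below describe counted UMIs, which also depend on the probes of each gene. With 1 library in each group there is no test, and every 95% interval covers counting error only. A class that holds fewer cells of a type, or cells with less RNA of a gene, gives the same fall in a summed level.

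Bases within 250 upstream of a transcript start are shown first for a few collagen genes. These genes are shown because they fall on the 2 sides of the comparison between hepatocytes and stellate-marker cells that runs through the results. Relative to their level in stellate-marker cells, Col18a1, Col5a3 and Col27a1 stood higher in hepatocytes than the marker genes of stellate cells did, and Col3a1 and Col1a2 did not. The sequences were read from the RefSeq promoter table (build GRCm38.p6, the assembly named mm10 in the files), which held a window for 35 of the 44 genes. Each runs 5′ to 3′ on the strand of its gene, without bases that lie in annotated exons. That leaves positions -248 to -126 from the start for Col1a2 and -250 to -19 for Col18a1, so motifs nearer these starts are not shown. For Col27a1 and Col1a2 the RefSeq start lies inside the span of the gene in the GENCODE annotation, so these windows are not the bases before the first annotated start. Capitals mark the letters of a CCAAT box (CCAAT), a GC box (GGGCGG), the TATA box (TATAAA) or the CAGA box (CAGACA) on either strand. The windows of Col18a1 (chr10:77166549-77166780, minus strand), Col5a3 (chr9:20815068-20815317, minus), Col27a1 (chr4:63215162-63215411, plus), Col3a1 (chr1:45311288-45311537, plus) and Col1a2 (chr6:4505370-4505492, plus) read as follows.
Col18a1: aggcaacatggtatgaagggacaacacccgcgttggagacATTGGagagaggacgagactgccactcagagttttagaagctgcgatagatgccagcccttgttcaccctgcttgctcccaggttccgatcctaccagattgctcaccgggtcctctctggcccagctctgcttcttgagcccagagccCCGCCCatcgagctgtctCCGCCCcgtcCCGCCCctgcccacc
Col5a3: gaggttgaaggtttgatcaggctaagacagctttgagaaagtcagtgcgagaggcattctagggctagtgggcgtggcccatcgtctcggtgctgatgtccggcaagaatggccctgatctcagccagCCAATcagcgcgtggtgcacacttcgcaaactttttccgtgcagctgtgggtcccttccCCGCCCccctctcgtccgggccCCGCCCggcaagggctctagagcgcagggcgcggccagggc
Col27a1: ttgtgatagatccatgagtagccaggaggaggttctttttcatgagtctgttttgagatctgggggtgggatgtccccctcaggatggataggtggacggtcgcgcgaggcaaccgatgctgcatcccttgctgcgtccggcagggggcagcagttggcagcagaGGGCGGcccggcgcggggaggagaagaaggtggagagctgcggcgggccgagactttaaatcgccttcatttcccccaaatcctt
Col3a1: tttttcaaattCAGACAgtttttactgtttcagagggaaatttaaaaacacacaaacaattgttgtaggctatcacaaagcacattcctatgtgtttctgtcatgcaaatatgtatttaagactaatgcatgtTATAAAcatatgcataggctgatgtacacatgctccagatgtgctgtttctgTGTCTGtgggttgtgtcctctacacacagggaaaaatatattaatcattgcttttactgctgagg
Col1a2: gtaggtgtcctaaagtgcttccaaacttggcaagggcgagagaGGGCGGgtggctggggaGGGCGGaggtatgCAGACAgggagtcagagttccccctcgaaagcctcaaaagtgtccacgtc
The 3 genes of the first kind held GC boxes here and no TATA box, and Col3a1 held a TATA box and CAGA boxes and no GC box. The motifs did not follow the 2 sides, since Col1a2 held GC boxes and no TATA box too in the bases shown. Of 2 further genes that stood above the marker genes, Col15a1 held none of the 4 motifs in its window and Col13a1 held a TATA box. Among all 32851 windows of 250 bases, 12.4% held TATAAA, 33.8% CCAAT, 32.7% GGGCGG and 17.1% CAGACA on either strand. Of the 38 collagen windows, 5 held the first, 13 the second, 22 the third and 9 the last. The letters of 2 hepatocyte factor motifs, CAAAGTCCA (HNF4A) and the HNF1 site, were in no collagen window, against 0.384% and 0.00913% of all windows, and TGTTTAC (FOXA) was in 1, that of Col6a1, against 3.17%. The 38 windows belong to 35 genes, so some genes have more than 1. These are matches of letters and show neither binding nor its absence. Which start of a gene the cells used was not measured, so the window of Col18a1 may not be the promoter active in hepatocytes.

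Hepatocytes held UMIs of 38 and 42 of the 44 collagens, but 18 reached 1 CPM in each library, 7 reached 10 CPM and 1 reached 100 CPM. Col11a1 and Col26a1 had 0 UMIs in both libraries, which allows levels of up to 0.00765 and 0.00760 CPM at 3 counts. The gene past 100 CPM was Col18a1, which made up 88.2% and 86.6% of all collagen UMIs in hepatocytes. The summed level of the 44 genes in hepatocytes was 1453 and 1295 CPM, and without Col18a1 it was 171 and 173 CPM. Stellate-marker cells showed the opposite make-up. Their summed level was 11505 and 13995 CPM, 12 and 13 collagens reached 100 CPM, and Col18a1 gave 6.36% and 4.05% of the UMIs. Without Col18a1 the sum was 62.9-fold and 77.7-fold higher in stellate-marker cells than in hepatocytes, and in endothelial-like cells it was 7.68-fold and 8.97-fold higher. In macrophage-marker cells it was still 4.95-fold and 2.79-fold higher. The stellate reference genes are 14 genes of stellate and other mesenchymal cells that are no collagens. They stood at 190 and 168 CPM in macrophage-marker cells against 33.8 and 37.2 CPM in hepatocytes.

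**Figure D1:**
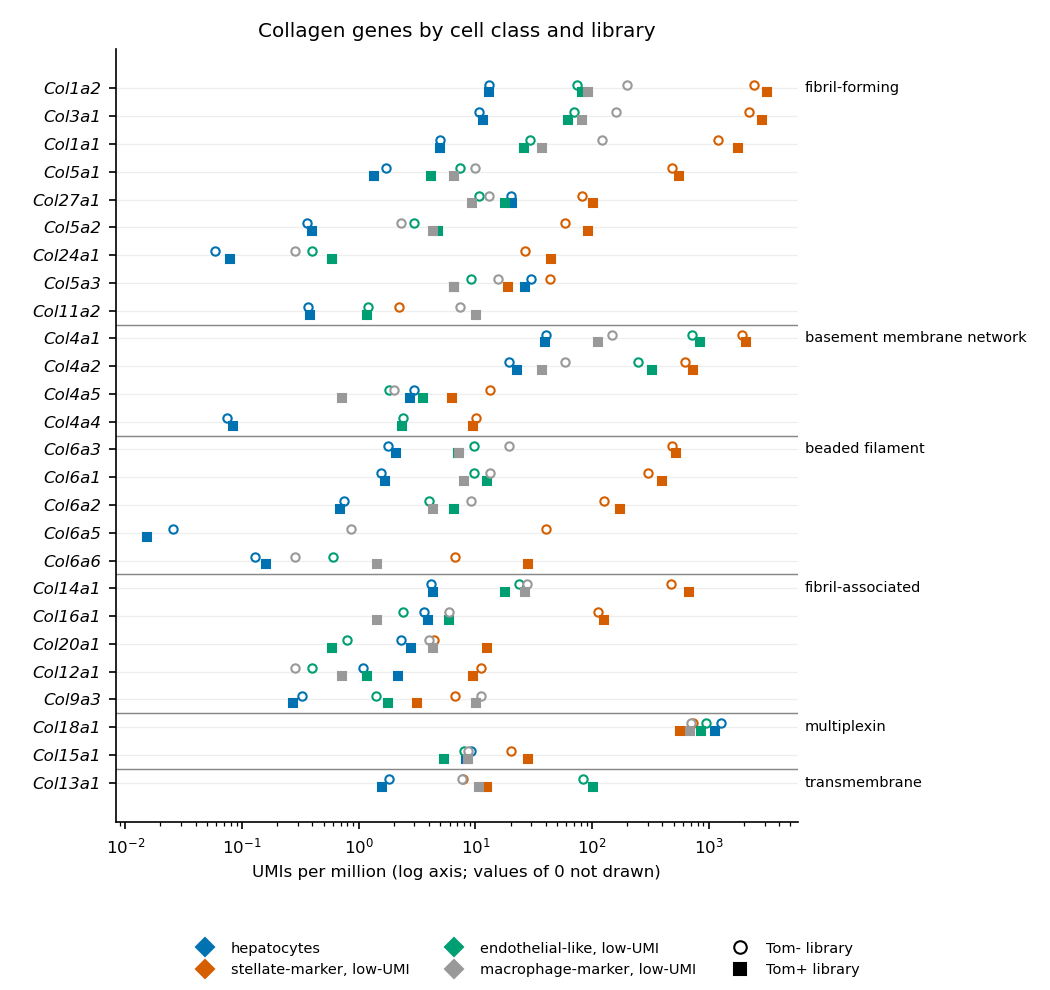
Level (CPM, log axis) of the collagens that reached 10 CPM in any of 4 cell classes: hepatocytes and the stellate-marker, endothelial-like and macrophage-marker clusters. Open circles are the Tom- and filled squares the Tom+ library. Col18a1, at 1281 and 1122 CPM in hepatocytes, is lower in each of the other 3 classes in both libraries.

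Read gene by gene, 27 of 31 collagens with at least 20 UMIs were at least 2-fold higher in stellate-marker cells than in hepatocytes in the Tom- library, where 29.8% of all genes were. In the Tom+ library 24 of 28 were, against 29.4% of all genes. Because the classes differ so much in depth, a gene had to pass 2-fold both with and without the pseudocount of 0.5 UMI. With the pseudocount alone Col4a3 and Col20a1 in the Tom- library and Col23a1 and Col11a2 in the Tom+ library would have passed too. The median log2 difference of the collagens, with the pseudocount, was 5.60 and 5.66, against 0.52 and 0.66 over all genes tested. No collagen was 2-fold lower, where 4.07% and 7.55% of all genes were. The cells were grouped without using collagen genes, but a gene that a cell type makes is likely to differ between clusters of cell types, so these numbers are a description.

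The 11 fibril-forming collagens summed to 81.5 and 79.1 CPM in hepatocytes and to 6564 and 8591 CPM in stellate-marker cells. Col1a1 (chr11:94936224-94953042) and Col1a2 (chr6:4504814-4541544) encode the chains of type I, the bulk of scar collagen. Col1a1 was at 4.99 and 4.96 CPM in hepatocytes and at 1209 and 1763 CPM in stellate-marker cells, 242-fold and 356-fold higher. Col1a2 was at 13.2 CPM in hepatocytes of both libraries and at 2429 and 3150 CPM in stellate-marker cells. Col3a1 (chr1:45311538-45349706), the chain of type III, was at 10.8 and 11.7 CPM against 2225 and 2865 CPM. Hepatocyte levels of these 3 genes thus lay between 184-fold and 356-fold under those of stellate-marker cells in both libraries. Col5a1, which starts fibrils of type I, followed them with 1.71 and 1.35 CPM in hepatocytes and 486 and 557 CPM in stellate-marker cells, and Col5a2 with 0.360 and 0.395 CPM against 59.1 and 91.8 CPM. Col24a1, a minor fibrillar chain, was at 0.0587 and 0.0786 CPM against 26.8 and 44.3 CPM.

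Col5a3 and Col27a1 are fibril-forming by sequence but did not share that pattern. Col5a3 (chr9:20770050-20815067), the third chain of type V, was at 29.8 and 26.5 CPM in hepatocytes, at 43.5 and 19 CPM in stellate-marker cells (39 and 6 UMIs), and at 9.21 and 6.52 CPM in endothelial-like cells. Its hepatocyte values rest on 11671 and 10473 UMIs. Col27a1 (chr4:63214004-63334991), best known from cartilage, was at 20.2 and 20.5 CPM in hepatocytes, 82.5 and 101 CPM in stellate-marker cells and 10.8 and 17.8 CPM in endothelial-like cells. Col5a3 was thus higher in hepatocytes than in endothelial-like cells, whose intervals ran from 6.74 to 12.3 and from 3.26 to 11.7 CPM. For Col27a1 the hepatocyte level lay above the endothelial-like interval in the Tom- library (8.12 to 14.1 CPM) and inside it in the Tom+ library (12 to 25.4 CPM, on 30 UMIs). Deep profiles with endothelial markers held Col27a1 at 24.8 and 23.1 CPM, above hepatocytes. Alb in these profiles stood at 107754 and 106637 CPM, near its hepatocyte level. Their Col27a1 therefore cannot be told apart from that of hepatocyte RNA. The 3 cartilage chains Col2a1, Col11a1 and Col11a2 stayed low, and Col11a2 was highest in macrophage-marker cells at 7.43 and 10.1 CPM against 0.367 and 0.385 CPM in hepatocytes.

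The 6 genes of type IV summed to 62.6 and 65.3 CPM in hepatocytes, 2593 and 2824 CPM in stellate-marker cells and 963 and 1184 CPM in endothelial-like cells. Nearly all of it came from Col4a1 (chr8:11198423-11312826, minus strand) and Col4a2 (chr8:11312805-11449287, plus strand), the chains of every basement membrane. The 2 genes lie head to head, and their transcribed starts overlap by 22 bases at chr8:11312805-11312826, shown on the plus strand because 1 stretch of sequence serves both genes (capitals mark a GC box).
Col4a1 and Col4a2: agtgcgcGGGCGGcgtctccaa
Col4a1 was at 40.0 and 39.8 CPM in hepatocytes, 1935 and 2077 CPM in stellate-marker cells and 712 and 847 CPM in endothelial-like cells, and Col4a2 was at 19.4 and 22.6, 630 and 725, and 245 and 325 CPM. The order of the classes was the same for both genes in both libraries. Col4a5, a chain of the kidney and lung membrane, was at 2.97 and 2.77 CPM in hepatocytes and 13.4 and 6.33 CPM in stellate-marker cells on 12 and 2 UMIs. Col4a3, Col4a4 and Col4a6 stayed under 0.1 CPM in hepatocytes.

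The beaded filament genes of type VI, which tie cells to the matrix, summed to 4.24 and 4.67 CPM in hepatocytes and 953 and 1130 CPM in stellate-marker cells. Col6a3 (479 and 525 CPM), Col6a1 (299 and 396 CPM) and Col6a2 (127 and 174 CPM) carried the stellate-marker sum. Col6a5 had 36 UMIs in stellate-marker cells of the Tom- library and 0 in the Tom+ library. The 0 allows up to 9.50 CPM at 3 counts, against 40.1 CPM in the Tom- library. Only 3.76% of the stellate-marker cells of the Tom- library held a UMI of Col6a5. The 36 UMIs thus came from few cells, and the counting limit does not cover the spread between cells. Among the fibril-associated collagens, Col14a1, which coats type I fibrils, was at 4.18 and 4.29 CPM in hepatocytes and 478 and 671 CPM in stellate-marker cells, and Col16a1 was at 3.64 and 3.95 against 113 and 127 CPM. Col12a1, another fibril coat, was at 1.08 and 2.17 CPM in hepatocytes and 11.1 and 9.50 CPM in stellate-marker cells, on 10 and 3 UMIs. Col20a1 was at 2.29 and 2.83 CPM in hepatocytes and had 4 UMIs in stellate-marker cells of each library. Col9a3 resembled Col11a2, at 11.1 and 10.1 CPM in macrophage-marker cells and 0.326 and 0.271 CPM in hepatocytes.

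Of the transmembrane collagens, Col13a1 (chr10:61838236-61979108) stood out by its class. It was at 83.7 and 103 CPM in endothelial-like cells, 45.8-fold and 65.4-fold above its 1.83 and 1.57 CPM in hepatocytes, and at 7.80 and 12.7 CPM in stellate-marker cells. Endothelial-like cells had 20 of 30 and 18 of 29 collagens at least 2-fold above hepatocytes, where 20.8% and 19.4% of all genes were, and 3 and 2 at least 2-fold below, where 7.71% and 8.26% were. Col5a3 and Col20a1 were below in both libraries, and Col12a1 in the Tom- library. In macrophage-marker cells 19 of 30 and 15 of 28 were above, against 28.2% and 23.4%, and 1 and 5 were below, against 4.84% and 6.64%. The 1 was Col12a1, and the 5 were Col12a1, Col5a3, Col27a1, Col16a1 and Col4a5. Col17a1, Col23a1 and Col25a1, the other transmembrane genes, Col7a1 of the anchoring fibril, and Col8a1, Col8a2, Col10a1 and Col28a1 all stayed under 0.2 CPM in hepatocytes.

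Col18a1 (chr10:77052178-77166548) and Col15a1 (chr4:47208161-47313167) form the multiplexins, collagens of basement membrane zones that carry sugar chains. Col18a1 had its highest level in hepatocytes in both libraries, at 1281 CPM (95% interval 1278 to 1285) and 1122 CPM (1119 to 1125). It was at 731 and 567 CPM in stellate-marker cells, 937 and 855 CPM in endothelial-like cells and 710 and 690 CPM in macrophage-marker cells. Over the 3 other classes its ratio to hepatocytes ran from 0.554 to 0.731 in the Tom- and from 0.505 to 0.762 in the Tom+ library. After thinning each cell to 5000 UMIs, 99.7% and 99.4% of hepatocytes had a UMI of Col18a1, and 91.6% and 95.9% of macrophage-marker cells. The other classes held hepatocyte RNA, and its part in their Col18a1 was not tested. For the hepatocyte secretory genes Alb, Apoa1 and Ttr, the hepatocyte level was 86.3% to 128% of the stellate-marker level in Tom-. In Tom+ it was 128% to 146%. Col15a1 was at 9.24 and 8.37 CPM in hepatocytes, 20.1 and 28.5 CPM in stellate-marker cells and 8.01 and 5.34 CPM in endothelial-like cells.

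Thinned shares of cells with a UMI separated the other genes in the same way. Col5a3 had a UMI in 13.8% (95% interval 13.2 to 14.5) and 12.3% (11.7 to 13) of hepatocytes, against 4.66% (2.63 to 7.57) and 2.22% (0.270 to 7.80) of endothelial-like cells and 5.04% and 5.48% of macrophage-marker cells. Col1a2 went the other way, with 5.81% and 6.24% of hepatocytes, 17.7% and 23.3% of endothelial-like cells, 26.1% and 21.9% of macrophage-marker cells and 95.4% and 100% of stellate-marker cells. The hepatocyte share of Col1a2 was therefore below that of macrophage-marker cells, and whether those cells make it was not tested. Col1a1 had a UMI in 2.18% and 2.11% of thinned hepatocytes and, unthinned, in 11.3% and 11.8%. Thinning kept 65 and 18 stellate-marker cells, which leaves wide intervals there.

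To set collagen levels in hepatocytes beside those of RNA that hepatocytes should not make, the hepatocyte level of each gene was written as a percentage of its level in stellate-marker cells. RNA spread from 1 source would keep its genes at 1 percentage. For 13 stellate reference genes with at least 20 UMIs this percentage ran from 0.206% (Pdgfra) to 2.72% (Tagln) with a median of 0.746% in the Tom- library, and from 0.237% to 5.15% with a median of 0.541% in the Tom+ library. The upper limit in the Tom+ library was Tagln too, on 22 UMIs, and the next gene there was Rgs5 at 1.85%. Col1a1 was at 0.413% and 0.281%, Col1a2 at 0.543% and 0.418% and Col3a1 at 0.485% and 0.409%. Col5a1, Col5a2, Col6a1, Col6a2, Col6a3 and Col14a1 lay between 0.243% and 0.873% as well. All of these were inside the range of the reference genes, and the 3 genes of types I and III were under its median in both libraries.

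Col18a1 was at 175% (95% interval 162 to 189) and 198% (171 to 231), far above the range. Col27a1 was at 24.5% (19.5 to 31.3) and 20.3% (14.3 to 29.6), and Col5a3 at 68.5% (50.1 to 96.3) and 140% (64.2 to 381). Col15a1 was at 46.1% and 29.4%, Col20a1 at 51.3% and 22.3%, Col4a5 at 22.2% and 43.7%, Col13a1 at 23.4% and 12.4%, Col12a1 at 9.68% and 22.9%, and Col9a3 at 4.88% and 8.57%. These 9 of the 29 collagens with stellate UMIs in both libraries lay above the highest reference gene in both, and 7 of them also by their lower counting bound, all but Col13a1 and Col9a3. The denominators are small, and of the 14 collagens with at least 20 stellate UMIs in both libraries only Col18a1 and Col27a1 lay above. No share of all genes above the range is given beside these counts. Over all genes tested, the median was only 0.52 and 0.66 higher in stellate-marker cells on the log2 scale. The median gene thus lay above the range too, and these counts do not set the collagens apart. Col4a1 was at 2.07% and 1.92% and inside the range, while Col4a2 at 3.09% and 3.12% and Col16a1 at 3.24% and 3.12% were above it in the Tom- library only. In the Tom+ library the limit was Tagln alone, and Col4a1, Col4a2 and Col16a1 stood above the next gene, Rgs5, at 1.85%. For 15 collagens no percentage exists in 1 or both libraries, because the stellate-marker cells had no UMI.

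**Figure D2:**
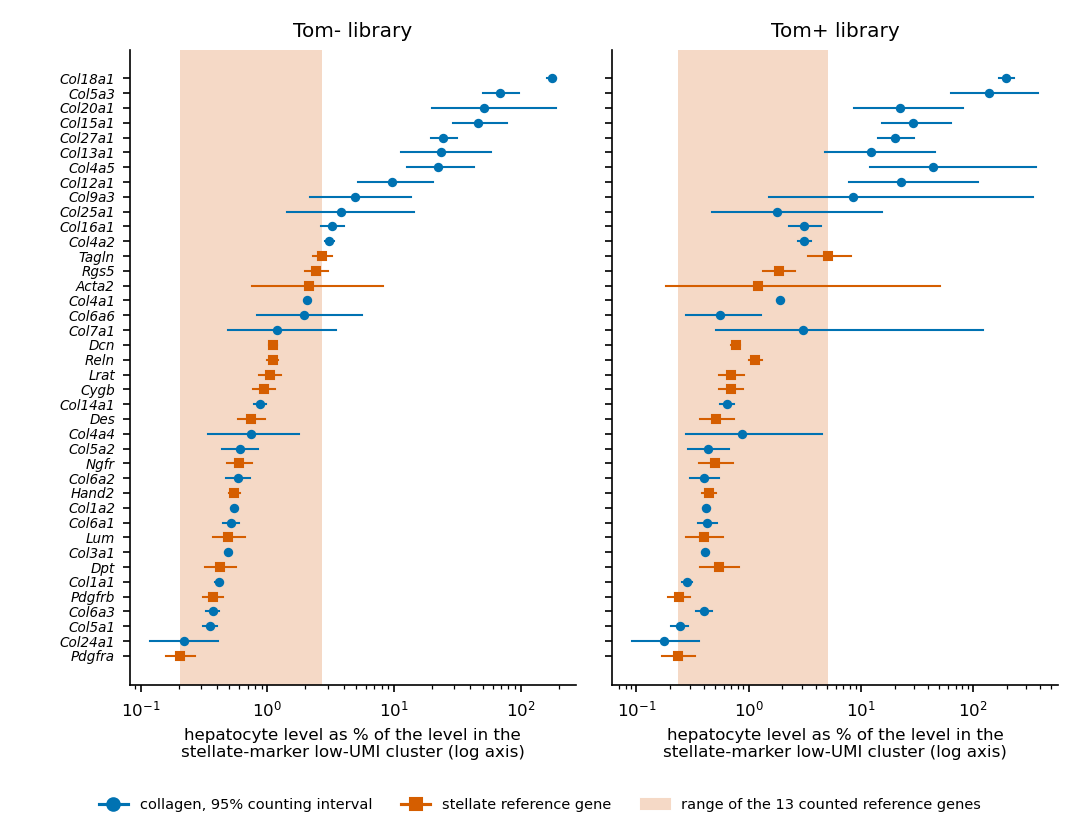
Hepatocyte level as a percentage of the stellate-marker level (log axis) for collagens with at least 4 stellate-marker UMIs in the Tom- and 1 in the Tom+ library, with 95% counting intervals; the shaded band is the range of 13 stellate reference genes. Col18a1, Col5a3, Col15a1 and Col27a1 lie above the band and Col1a1, Col1a2 and Col3a1 inside it. Circles are collagens, squares the reference genes, and each library has its own panel.

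A sum over 3 sources moved some genes across the range. The level of each gene in stellate-marker, endothelial-like and macrophage-marker cells, each times the median percentage of that type's reference genes, was added up and set beside the hepatocyte level. The observed level was 0.417 and 0.468 times this sum for Col1a1, 0.561 and 0.661 times for Col1a2 and 0.509 and 0.655 times for Col3a1. It was 0.889 and 0.817 times for Col13a1, which had been above the stellate range but is an endothelial-like gene here. Col9a3, also above that range before, was at 1.12 and 1.24 times, within the range of this sum. It was 1.21 and 1.48 times for Col4a1 and 1.73 and 2.29 times for Col4a2. Among the stellate reference genes Tagln was highest in both libraries, and in the Tom+ library the next was Rgs5 at 2.02 times. The stellate reference genes themselves ran from 0.261 to 2.45 times and from 0.402 to 4.40 times. Outside that range in both libraries lay Col18a1 (32.4 and 39.0 times), Col5a3 (36.1 and 82.9 times), Col27a1 (18.4 and 20.6 times), Col15a1 (18.9 and 21.5 times) and Col16a1 (3.62 and 4.89 times), among others with few UMIs in the source cells. The source cells hold hepatocyte RNA too, so for a gene such as Col18a1 the sum counts part of the hepatocyte level back in and the ratio is too low.

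Hepatocytes were next divided by how many UMIs of the stellate reference genes each cell held. Cells with 0 numbered 4930 and 3967, with medians of 27139.5 and 27678 UMIs, and cells with 8 or more numbered 190 and 254, with medians of 52259.5 and 66172.5 UMIs. Col1a1 went from 2.59 to 39.0 CPM between these bins in the Tom- library and from 2.24 to 35.7 CPM in the Tom+ library, 15-fold and 15.9-fold. Col1a2 was 14.4-fold and 14.1-fold higher, Col3a1 13-fold and 12.3-fold, Col14a1 8.00-fold and 8.79-fold, Col4a1 4.39-fold and 3.51-fold and Col4a2 3.05-fold and 2.72-fold. At least 2-fold higher were 11 and 12 of 24 collagens, where 6.56% and 6.9% of all genes were, and 3 and 0 were lower, against 1.9% and 1.04%. Col18a1 was 1.05-fold and 0.973-fold, Col27a1 0.985-fold and 1.12-fold, Col15a1 1.04-fold and 1.08-fold and Col5a3 0.730-fold and 0.735-fold. Those 4 genes were thus nearly level or, for Col5a3, lower in the cells with the most stellate RNA. The cells with 8 or more were also the deeper ones. The bins may differ in zone too, since the stellate reference genes summed to 46.6 and 44.8 CPM in zone 3-like cells. In zone 1-like cells they summed to 24.4 and 22.1 CPM. The part of depth or zone in these folds was not tested.

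**Figure D3:**
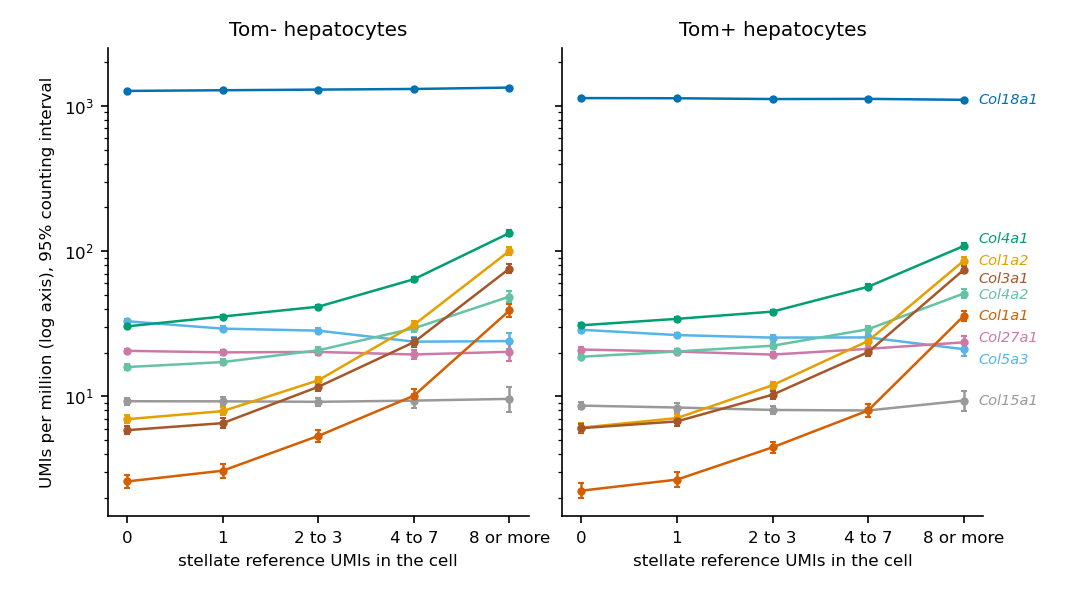
Level (CPM, log axis) of 9 collagens in hepatocytes binned by the number of stellate reference UMIs per cell (0, 1, 2 to 3, 4 to 7, 8 or more), with 95% counting intervals and 1 panel for each library. Col1a1, Col1a2 and Col3a1 climb 12.3-fold to 15.9-fold and Col18a1, Col27a1, Col15a1 and Col5a3 stay between 0.730-fold and 1.12-fold of the cells with 0 in the last bin.

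With the same bins made from endothelial reference genes, Col13a1 was 3.49-fold and 2.74-fold higher in cells with 8 or more UMIs than in cells with 0, and Col4a1 2.28-fold and 2.35-fold. Col5a3 was again lower there, 0.687-fold and 0.791-fold. Hepatocytes without a single UMI of the stellate, endothelial or macrophage reference genes were few, 96 and 155 cells. In them Col18a1 was at 1200 and 1146 CPM, 93.7% and 102% of its level in all hepatocytes, and Col5a3 was at 37.4 and 38.6 CPM, 126% and 145%. Col27a1 was at 27.3 and 23.0 CPM, 135% and 112%. Col1a1 had 3 and 4 UMIs in these cells, 38.1% and 33.1% of its level in all hepatocytes, and Col1a2 was at 33.7% and 28.0%. Col3a1 was at 29.4% and 49.0%, on 5 and 14 UMIs. RNA of types I and III was thus lower but still detected in these cells. Their median depth was 14368 UMIs, well under that of all hepatocytes, and they still held 1 and 3 UMIs of Col6a3, 2 and 3 of Col5a1 and 3 and 8 of Col14a1. A count of 0 for the reference genes therefore does not show that they were free of stellate RNA, and the part of types I and III that hepatocytes make, if any, could not be resolved.

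Deep profiles with stellate markers, 789 and 585 cells with medians of 37748 and 45834 UMIs, held collagen and stellate reference genes together. Alb in them stood at 111640 and 105458 CPM, near its hepatocyte level, so they are not a second class of pure stellate cells. Their leading genes, such as Nr1h5, Bmp10 and Tcf21, were not those of the stellate-marker cluster. Relative to the difference between stellate-marker cells and hepatocytes, these profiles held a median of 12.9% (range 9.96% to 20.6%) and 9.82% (5.73% to 16.6%) for 12 collagens. For 13 reference genes it was 14.4% (4.95% to 21.3%) and 10.5% (4.36% to 20.4%), with Dpt lowest in both libraries. Only genes with at least 20 stellate-marker UMIs in both libraries and a level at least 10-fold that of hepatocytes were counted. Both sets were thus picked as high in stellate-marker cells. The summed collagen of the deep profiles without Col18a1 was 9.96-fold and 8.69-fold above hepatocytes. Col18a1 in them made up 41.1% and 40.7% of collagen UMIs.

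Between the zones of the lobule, the collagens of types I and III were higher near the central vein. Col1a1 was at 7.95 and 6.58 CPM in zone 3-like and at 3.47 and 2.03 CPM in zone 1-like hepatocytes, a log2 difference of 1.2 (95% interval 0.99 to 1.40) and 1.70 (1.48 to 1.92). Col1a2 differed by 0.98 and 1.09 and Col3a1 by 0.80 and 1.06 on the log2 scale. The stellate reference genes moved with them, from 24.4 to 46.6 CPM and from 22.1 to 44.8 CPM, with 11 and 12 of 14 genes higher in zone 3-like cells and none at 0. Their summed log2 difference was 0.93 and 1.02, and much of it was 1 gene. Reln, which encodes the matrix protein reelin and was singled out after its values were seen, stood at 14.8 CPM in zone 3-like cells of both libraries and at 3.08 and 2.95 CPM in zone 1-like cells. Without Reln the sum differed by 0.57 (0.48 to 0.67) and 0.65 (0.57 to 0.72), less than Col1a1, Col1a2 and Col3a1 did, with 10 and 11 of 13 genes higher. The macrophage reference genes were higher in zone 3-like cells as well, by 0.33 and 0.40 with 10 of 11 genes higher in each library, while the endothelial ones differed by -0.20 and -0.19. The part of these RNAs in the zone difference of types I and III was not tested.

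Col12a1 (chr9:79598991-79718831) had the largest zone difference of the collagens with at least 100 UMIs. It was at 4.44 and 4.09 CPM in zone 3-like and at 0.385 and 0.373 CPM in zone 1-like hepatocytes, a log2 difference of 3.53 (3.10 to 3.97) and 3.46 (2.98 to 3.97). In the cluster led by Glul, Lgr5 and Axin2, genes of the cells next to the central vein, it was at 4.45 and 5.03 CPM, the highest of all hepatocyte clusters of 50 or more cells. Its level in cells with 8 or more stellate reference UMIs was 1.48-fold and 0.912-fold that of cells with 0, on 15 and 29 UMIs. Col16a1 (chr4:130047840-130099283) showed the reverse, at 1.62 and 2.40 CPM in zone 3-like and 5.71 and 8.18 CPM in zone 1-like hepatocytes, log2 differences of -1.82 and -1.77. It was highest among zone 1-like clusters in the 1 led by Obp2a and Cyp2f2, at 7.15 and 12.3 CPM.

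Of the other genes above the stellate range, Col20a1 differed by 0.42 and 1.14 between the zones. Col18a1 was at 1138 and 1036 CPM in zone 3-like and 1285 and 1159 CPM in zone 1-like cells, log2 differences of -0.18 and -0.16. Col5a3 differed by -0.53 and -0.46, Col15a1 by -0.35 and -0.74, and Col27a1 by 0.22 and 0.66. Col4a1 differed by 0.27 and 0.32 and Col4a2 by 0.43 in both libraries. At 2-fold or more, 3 of 25 collagens were higher in zone 3-like cells of the Tom- library (Col1a1, Col6a3 and Col12a1), where 6.78% of all genes were, and 3 lower (Col6a6, Col16a1 and Col25a1), against 3.88%. In the Tom+ library 5 of 26 were higher (Col1a1, Col1a2, Col3a1, Col12a1 and Col20a1), against 8.63%, and 2 lower (Col16a1 and Col25a1), against 3.04%. The median log2 difference of the collagens was 0.25 and 0.32, against 0.16 and 0.24 over all genes. Col25a1 rested on 3 and 38 UMIs in zone 3-like and zone 1-like cells of the Tom- library and on 7 and 20 in the Tom+ library, and Col6a6 on 1 and 22 in the Tom- library.

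**Figure D4:**
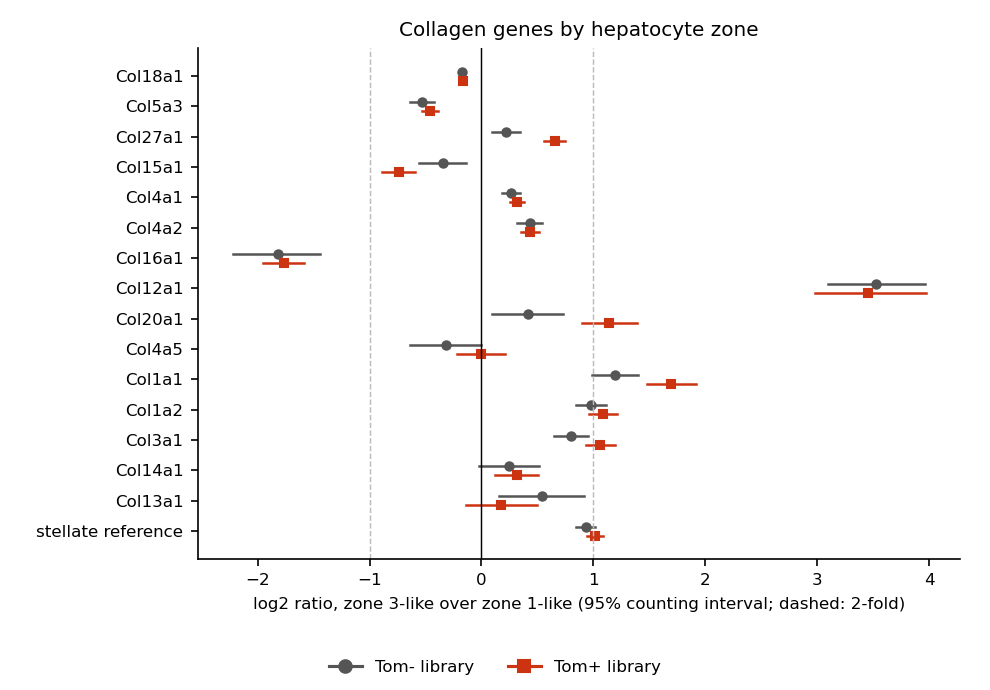
Log2 difference in level between zone 3-like and zone 1-like hepatocytes for single collagens, with 95% counting intervals, in the Tom- (grey circles) and Tom+ (red squares) library, with the sum of the stellate reference genes in the last line. Col12a1 lies at 3.53 and 3.46, Col16a1 at -1.82 and -1.77 and Col18a1 near 0.

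Across hepatocyte clusters of 50 or more cells, Col18a1 varied little, from 1140 to 1382 CPM in the Tom- and from 1005 to 1189 CPM in the Tom+ library. Col5a3 ran from 21.6 to 48.2 CPM and from 21.8 to 47.5 CPM. It was highest in both libraries in the same zone 1-like cluster, 1 of those led by Mfsd2a and Myo15b. Col27a1 ran from 10.8 to 37.2 CPM and from 9.86 to 33.3 CPM, and Col15a1 from 6.13 to 13.4 CPM and from 4.80 to 13 CPM. Both were highest in 1 cluster that carried the name of no zone, led by Nr1i3 and Josd2. The clusters were made without the collagen genes.

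Between Tom+ and Tom- hepatocytes the collagens as a group differed little. The hepatocyte class left out 9246 of 20159 Tom- and 3445 of 13378 Tom+ cells. Among these was a gene-poor cluster of 4226 and 419 cells with Alb at 118269 CPM. With low-gene clusters kept, more collagens lay past 2-fold and Col3a1 turned to -0.20, as given in the last part. The summed level had a log2 difference of -0.17 (95% interval -0.17 to -0.16), and without Col18a1 of 0.013 (-0.0019 to 0.029). Within zone 1-like cells the summed difference was -0.14 and within zone 3-like cells -0.12. Of 30 collagens with at least 20 UMIs, 1 was at least 2-fold higher in Tom+ hepatocytes, where 1.95% of all genes were, and 1 at least 2-fold lower, against 0.652%. The median over the 30 was 0.03, beside 0.04 over all genes. The gene that was lower, Col4a3, had 30 and 11 UMIs.

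The gene that was higher was Col12a1, with 423 and 858 UMIs, 1.08 and 2.17 CPM and a log2 difference of 1.01 (0.84 to 1.18). Without the pair of clusters led by genes of other cells it was 0.996. Col4a3 then had 21 and 11 UMIs and was no longer past 2-fold either, so that 0 collagens were. Within the named zones Col12a1 did not differ that way. It was at 0.385 and 0.373 CPM in zone 1-like cells (log2 difference -0.05) and at 4.44 and 4.09 CPM in zone 3-like cells (-0.12). In the 4851 and 3705 hepatocytes that carried the name of no zone it was higher in Tom+, at 1.04 and 1.60 CPM, a log2 difference of 0.62 (0.34 to 0.90). The make-up of these cells differed too. Their cluster with Cd5l and Clec4f beside Scd1 held 1281 Tom- and 255 Tom+ cells, and that led by Cyp3a44 and Enho 1442 and 2074. Weighting the Tom- levels of the classes by the UMI shares of the Tom+ library gave 2.09 CPM for Tom-, and a log2 difference of 0.06. Inside zone 3-like Tom+ cells, Col12a1 was at 5.03 CPM in the cluster led by Glul and Lgr5 and at 2.83 CPM in the cluster with 1493 Tom+ cells named above. Col27a1 was at 17.6 and 26.1 CPM in the same 2 clusters, and Col1a1 at 4.78 and 8.99 CPM.

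Over all hepatocytes Col1a1 was at 4.99 and 4.96 CPM, a log2 difference of -0.01 (95% interval -0.10 to 0.08). Within zone 1-like cells it was lower in Tom+, at 2.03 against 3.47 CPM (-0.77), and within zone 3-like cells at 6.58 against 7.95 CPM (-0.27). With equal class shares the difference was -0.26. Without the clusters in which 90% or more of the cells were Tom+, it was -0.89 (-1.15 to -0.63) in zone 1-like cells, at 3.43 and 1.86 CPM, and -0.72 (-0.95 to -0.50) in zone 3-like cells, at 7.89 and 4.78 CPM. Col1a2 differed by -0.0016 over all hepatocytes, by -0.39 in zone 1-like and by -0.28 in zone 3-like cells, and Col3a1 by 0.12, -0.33 and -0.07. For the sum of the stellate reference genes the same 3 values were 0.14, -0.14 and -0.06, with 7, 2 and 6 of 14 genes higher in Tom+. The 0.14 was nearly all Reln, at 5.93 and 8.99 CPM, and without it the values were 0.016 (-0.022 to 0.054), -0.15 and -0.08. In the hepatocytes that carried the name of no zone, Col1a1 differed by -0.086 (-0.22 to 0.046) and Col1a2 by 0.0062 (-0.072 to 0.084). In those cells Col3a1 was higher in Tom+ by 0.14 (0.051 to 0.22) and the stellate reference sum differed by 0.023 (-0.026 to 0.072). RNA of endothelial cells and macrophages was lower in Tom+ hepatocytes. The 13 endothelial reference genes summed to 95.6 and 72.3 CPM in hepatocytes, a log2 difference of -0.40 with 0 of 13 genes higher, and differed by -0.35 and -0.34 within the zones. The 11 macrophage reference genes summed to 256 and 204 CPM, a difference of -0.33 with 1 of 11 higher, and differed by -0.41 and -0.34. None of these genes was at 0, and their part in the collagen differences was not tested. Col18a1 was lower in Tom+ as well, with log2 differences of -0.19, -0.15 and -0.13 in the same order and -0.14 with equal class shares. Col4a2 was higher by 0.22, 0.15 and 0.15. Col5a3 differed by -0.17, -0.11 and -0.05, and Col16a1 by 0.11, 0.52 and 0.57. Without the clusters that were nearly all Tom+, the values for the zones were -0.37 and -0.38 for Col3a1, -0.38 and -0.50 for Col1a2, -0.13 and -0.10 for Col18a1 and 0.64 and 0.24 for Col16a1. Col4a2 then differed by 0.053 and 0.021 and Col5a3 by -0.16 and -0.063, while the stellate reference genes differed by -0.13 and -0.11. Col12a1 differed by 0.049 and 0.18, with intervals that held 0.

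**Figure D5:**
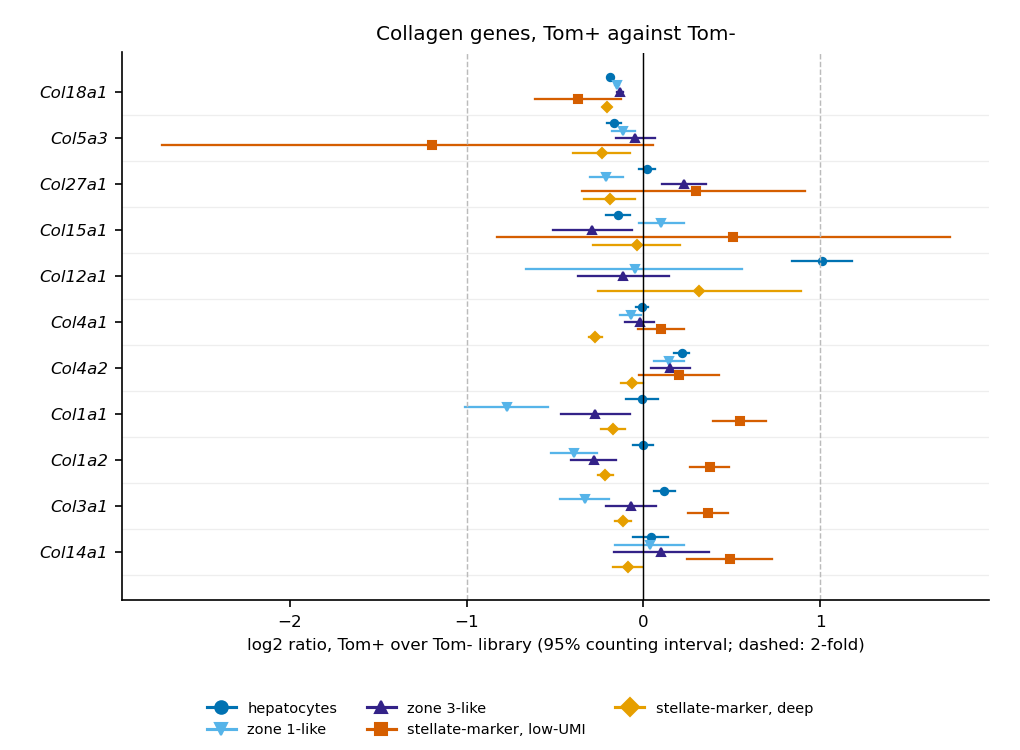
Log2 difference in level between the Tom+ and Tom- library for single collagens in hepatocytes, zone 1-like, zone 3-like and low-depth and deep stellate-marker cells, with 95% counting intervals, where both libraries together held at least 20 UMIs. Col12a1 lies at 1.01 over all hepatocytes and near 0 within both named zones.

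In zone 1-like cells 0 of 26 collagens differed by 2-fold or more, where 0.535% of all genes were higher and 0.975% lower. In zone 3-like cells 1 of 23 was higher, against 1.7%, and 0 lower, against 0.722%. The 1 was Col6a6, with 1 and 34 UMIs. These counts are close to what the share over all genes gives in a list of this size.

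In stellate-marker cells the fibril-forming sum was 6564 and 8591 CPM, a log2 difference of 0.39 (0.32 to 0.45), and that of all collagens 0.28 (0.23 to 0.33). Col1a1 was higher by 0.54, Col14a1 by 0.49, Col1a2 by 0.37 and Col3a1 by 0.36, while Col18a1 had a difference of -0.37. As a sum, the stellate reference genes were also higher by 0.46, with 12 of 14 genes in that direction. Markers of other cells moved in the same cells. The endothelial reference genes summed to 358 and 212 CPM, a difference of -0.75 (-1.16 to -0.37) with 3 of 13 higher, and the macrophage ones to 1384 and 1548 CPM, 0.16 (0.0071 to 0.31) with 8 of 11 higher. The medians of depth, 4998 and 4038 UMIs, and the 133 and 54 cells differed too, and the purity of the cluster and the level per cell cannot be told apart here. In the deep profiles with stellate markers the same 4 genes had differences of -0.17, -0.089, -0.22 and -0.12, and the reference genes of -0.10. At 2-fold or more, 0 of 18 collagens were higher in stellate-marker cells of the Tom+ library and 2 lower (Col5a3 and Col6a5), against 3.18% of all genes in each direction. Col5a3 rested on 39 and 6 UMIs, and Col6a5 on 36 and 0, the 36 in 3.76% of the Tom- cells. The median of the 18 was 0.34, against 0.08 over all genes.

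Endothelial-like cells had 1 of 17 collagens higher in the Tom+ library, Col16a1 on 12 and 10 UMIs, and 0 lower, against 1.37% and 1.01%. Col4a1 was higher by 0.25 (0.16 to 0.34) and Col4a2 by 0.41 (0.26 to 0.55), and the endothelial reference genes by 0.11, with 12 of 13 higher. Macrophage reference genes in these cells were lower, at 1071 and 777 CPM, a difference of -0.46 with 1 of 11 higher, and their part in the differences was not tested. Macrophage-marker cells had 0 of 19 higher and 5 lower, against 0.665% and 2.1%. The 5 were Col1a1, Col1a2, Col5a3, Col6a3 and Col16a1, of which Col1a1 was at 121 and 37.6 CPM and Col1a2 at 198 and 91.7 CPM. The stellate reference genes in those cells were at 190 and 168 CPM, with 2 of 14 higher in Tom+. The endothelial ones differed by -0.29 and the macrophage ones by -0.24.

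The machinery that folds and cuts collagen was measured in hepatocytes as well. Of 29 processing genes 27 had enough UMIs and 0 differed by 2-fold between Tom+ and Tom-, and of 13 breakdown genes 11 were compared and 0 differed. Of 9 receptor genes 7 were compared, and 1, Itga2 on 13 and 29 UMIs, was higher. Over all genes 1.95% were higher and 0.652% lower, so lists of this size hold about as many calls as the share over all genes gives. The medians were 0.06, 0.04 and 0.08. P4hb, the prolyl hydroxylase subunit that also serves as a disulfide isomerase, had the most UMIs, at 2244 and 2021 CPM, followed by Mia3, which loads collagen into export vesicles, at 471 and 511 CPM. Mmp19 and Mmp14, metalloproteinases, led the breakdown list at 130 and 124 and 42.7 and 46.2 CPM, and Itgb1 and Itga1, integrin chains, the receptors at 142 and 150 and 32.0 and 28.8 CPM. Serpinh1, the chaperone that collagen-making cells require, was at 4.36 and 3.76 CPM in hepatocytes and 449 and 608 CPM in stellate-marker cells.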

How the data were processed

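The authors hybridised probe pairs to RNA of fixed cells (Chromium Fixed RNA kit), with probes for tdTomato added, and counted UMIs with Cell Ranger 7.2.0 on mm10, per the file headers and the submitters' processing notes. The deposited values are raw UMI counts for each gene and barcode, with no normalisation. Gene positions are those of the GENCODE annotation of that build.

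Cells were kept at a mitochondrial fraction of at most 0.05, with 2000 to 10000 genes and at most 100000 UMIs, as in the methods of the study. Each cell was scaled to 10000 UMIs, and 2000 variable genes, none of them a collagen, gave 30 principal components, a graph of 20 neighbours and Leiden clusters (resolution 0.8) in scanpy 1.11.5 with igraph 0.11.9 and leidenalg 0.10.2. Other tools were matplotlib 3.10.9, scikit-learn 1.9.0, pandas 2.3.3, scipy 1.17.1 and numpy 2.4.6 under Python 3.11.15. A cluster counted as hepatocytes unless its median number of genes was below 0.75 of the median over the cells kept, or its level of Pecam1, Dcn or Ptprc reached 2.5 times that of the median cluster, and both sets were clustered again. A cluster took a name ending in -like from at least 3 markers, with at least 1 of them among its 10 leading genes. Excluded clusters were grouped by the type with most raised markers, if these made up at least 0.5 of its list. That grouping set no condition on leading genes. Low depth means a median of UMIs under 0.5 of that of all kept cells. No doublets were removed, and leaving out the 10% of cells with the highest Scrublet score was an alternative.

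Levels are CPM of the counts summed over a class, and their intervals are exact Poisson ones. Ratios have exact conditional binomial intervals and shares Clopper-Pearson intervals, all at 95%. Calls of 2-fold used a pseudocount of 0.5 UMI and at least 20 UMIs, and between classes of unequal depth the ratio without it had to pass as well. The functions were tested on simulated data. A limit beside 0 UMIs is 3 counts.

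Genes given with full values were the 8 collagens with the highest hepatocyte CPM, the 6 highest in stellate-marker, 4 in endothelial-like and 2 in macrophage-marker cells, those past 2-fold between the groups on 100 UMIs or more, and those above the stellate reference range in both libraries. Others were added after their values were seen. The members and lists were chosen with earlier results of these data known.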

Additional observations from a re-analysis of the deposited data

Results flagged for a closer look

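For 5 collagens the Tom+ and Tom- libraries differed in opposite directions in 2 related classes of cells, with a counting interval that left out 0 in each class. With 1 library in each group, the difference between the classes was not tested. No share of all genes that meet the same rule is given, so the count is no trait of the collagens. In the low-depth stellate-marker cells Col1a1 had a log2 difference of 0.54 (Tom+ over Tom-), Col14a1 of 0.49, Col1a2 of 0.37 and Col3a1 of 0.36. In the deep profiles that carry stellate markers the same genes had differences of -0.17, -0.089, -0.22 and -0.12. Those profiles held Alb at 111640 and 105458 CPM, near its hepatocyte level. Their share of stellate RNA and the level per stellate cell cannot be told apart. The stellate reference genes, which are not collagens, went the same way, with 0.46 in the low-depth cells and -0.10 in the deep profiles.

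Col27a1 had a log2 difference of -0.21 in zone 1-like and of 0.23 in zone 3-like hepatocytes. In the zone 3-like cluster of 1097 Tom- and 2161 Tom+ cells its level was 18.1 CPM in Tom- and 17.6 CPM in Tom+ cells. In the zone 3-like cluster with 30 Tom- and 1493 Tom+ cells, the Tom+ level was 26.1 CPM.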

How the results depend on the processing

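No paired analysis was possible because the labels carry no replicate numbers and a group was 1 library, so no replicate could be left out either. As reported, the log2 difference of summed collagen (Tom+ over Tom-) was -0.17 in hepatocytes, -0.12 in zone 3-like cells, -0.14 in the zone 1-like cells and 0.28 in the low-depth stellate-marker cells, 2 collagens lay past 2-fold and 9 lay above the stellate reference range. The log2 ratio of low-depth stellate-marker cells to hepatocytes was 2.98 in Tom- and 3.43 in Tom+. Values are given below, in that order of classes, where they left the counting interval of the reported value or where a count moved by over 1.5 times, and the cause was not tested. The sign turned in 2 of the 3 alternatives chosen after seeing the data. Without Col18a1 the hepatocyte difference was 0.013, with -0.0083 and -0.080 in zone 3-like and zone 1-like cells and stellate ratios of 5.97 and 6.28. With the deep stellate-marker profiles added, the stellate difference was -0.24, the ratios were 1.11 and 1.04, and 14 collagens lay above the range. In the third, leaving out 2 hepatocyte clusters led by genes of other cells, 0 collagens lay past 2-fold. With collagens allowed to define clusters, zone 1-like cells gave -0.15. At a clustering resolution of 1.2 the zones gave -0.14 and -0.15. A marker limit of 2 times gave -0.15 in zone 3-like and 0.35 in stellate-marker cells, ratios of 2.48 and 3.0, and 1 collagen past 2-fold. A limit of 4 times gave -0.17 in hepatocytes, -0.15 in zone 1-like and 0.35 in stellate-marker cells, and ratios of 2.35 and 2.88. With low-gene clusters kept, the zones gave -0.13 and -0.17, the ratios were 2.66 and 3.19, 4 collagens lay past 2-fold and Col3a1 turned to -0.20 in hepatocytes. Without an upper UMI limit the stellate difference was 0.41 and the ratios were 2.67 and 3.24. Clustering each library on its own gave -0.17 in hepatocytes and -0.15 in zone 3-like cells, and Col3a1 turned to -0.043. Leaving out the highest 10% of Scrublet scores gave -0.17 and -0.16. Thinning to 5000 UMIs gave -0.13 in hepatocytes, -0.10 in zone 1-like and 0.23 in stellate-marker cells, ratios of 2.85 and 3.21, 1 collagen past 2-fold and a turn of Col13a1 to 0.052. The mean of each cell's CPM gave -0.15, -0.12 in zone 1-like and 0.18 in stellate-marker cells, and ratios of 3.34 and 3.67. Median-of-ratios scaling gave -0.20, -0.15 and -0.10. Leaving out the 3 clusters with 90% or more Tom+ cells gave -0.14 in hepatocytes and -0.13 in zone 1-like cells. The 8897 hepatocytes with no UMI of the stellate reference genes gave -0.15, -0.077 and -0.13, a Tom- ratio of 3.03, 1 collagen past 2-fold and 28 above the range, a count that says nothing here because these cells were chosen for reference genes at 0, which puts the range at 0. A minimum of 100 UMIs left 1 collagen past 2-fold, and no minimum gave 8. Of 224 values for single named collagens under these alternatives, 182 stayed inside the interval of the reported value, 39 left it, 6 of them with another sign where the reported interval held 0, and 3 turned sign where it did not, as given above. A resolution of 0.4 and clustering each library on its own gave no low-depth stellate-marker cluster and so no stellate values. Intervals cover counting error only, and collagens with few UMIs could differ by more than this depth shows.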

Other observations

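Some cells fell into no class of the report. A cluster of 51 cells, 36 Tom- and 15 Tom+, was led by Msln, Upk1b, Muc16 and Upk3b, genes known from the mesothelium that covers the liver. Its collagens without Col18a1 summed to 1168 CPM, with Col1a2 at 290 CPM, Col3a1 at 173 CPM and Col6a1, a beaded filament chain, at 144 CPM. Col6a1 was among the 3 highest collagens other than Col18a1 in that cluster alone. A cluster led by Camp, Ngp and S100a8, genes of neutrophils, had 268 CPM without Col18a1. The largest cluster outside the hepatocytes, 3783 Tom- and 331 Tom+ cells of low depth, had 319 CPM without Col18a1 and 1142 CPM of Col18a1.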
